A study of Homo sapiens with 2 samples.

Results

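Iron storage, iron transport and heme metabolism were examined through 42 named genes in liver progenitors made from human embryonic stem cells. The genes were taken by symbol from the deposited table, and 41 of the 42 were matched to an identifier, among 19344 protein-coding genes and 57158 identifiers in all. The ferritin receptor for autophagy NCOA4 was not matched through the annotation used here and has no value below. All 41 are described by role, whatever their level.

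The cells came from the embryonic stem cell line CyT49. They had reached definitive endoderm, the layer that gives rise to gut, liver and pancreas, at day 2, and were then held in suspension with 50 ng/ml BMP4, 10 ng/ml FGF2 and 0.2% FBS (serum) for 6 days, to day 8. The series holds 2 libraries of this 1 group, both from 1 line with no gene change named, and no untreated, earlier or adult liver sample. Levels are therefore described, and no change with treatment, time or iron supply was measured. The unit is RPKM, in which read numbers are divided by gene length and by library depth, so that levels of different genes can be set side by side. No value lay between 0.1 and 0.5 RPKM in either library, and a value of 0.1 is read as under 0.5 RPKM and called the floor.

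Iron enters most cells bound to the plasma protein transferrin, which is taken up by the transferrin receptor. It is then reduced and moved into the cytosol, where it is used, stored inside ferritin shells or exported through ferroportin. The liver makes transferrin, stores iron and releases hepcidin, the hormone that removes ferroportin from the cell surface. Iron regulatory proteins adjust uptake and storage by binding short RNA hairpins, called iron-responsive elements, in the untranslated regions of a few messenger RNAs: in the 5′ region they block translation, and in the 3′ region of the transferrin receptor message they protect it from decay.

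Such hairpins were sought in the untranslated regions of all protein-coding genes, because they mark the genes through which iron controls storage, export and uptake. The motif was a C, 5 bases, the loop CAGTGN and 5 bases able to pair with the first 5 through A-T, G-C or G-T pairs, on the transcript strand. A match was present in 6 of the 41 genes (14.6%) and in 219 of 19344 protein-coding genes (1.13%). The 41 include messages already known for this control, so their higher share follows from the choice of genes and is not a result. The matches in both ferritin chains, the exporter ferroportin (SLC40A1) and the transferrin receptor (TFRC), messages known for this control, are printed below. They run 5′ to 3′ as DNA letters of GRCh37 (hg19), with the bulged C and the loop in capitals.

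FTL, 5′ UTR, chr19:49468592-49468620, plus strand: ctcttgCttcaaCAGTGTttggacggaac

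FTH1, 5′ UTR, chr11:61735046-61735074, minus strand: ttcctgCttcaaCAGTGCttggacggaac

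SLC40A1, 5′ UTR, chr2:190445387-190445415, minus strand: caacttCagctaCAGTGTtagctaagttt

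TFRC, 3′ UTR, chr3:195777334-195777362, minus strand: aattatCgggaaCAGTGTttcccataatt

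TFRC, 3′ UTR, chr3:195777381-195777409, minus strand: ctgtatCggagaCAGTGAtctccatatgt

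TFRC, 3′ UTR, chr3:195777446-195777474, minus strand: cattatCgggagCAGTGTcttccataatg

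TFRC, 3′ UTR, chr3:195777850-195777878, minus strand: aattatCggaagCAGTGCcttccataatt

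The matches in FTL, FTH1 and SLC40A1 lay in the 5′ UTR, and in TFRC the search found 4 in the 3′ UTR. Elements with another loop or an unpaired base in the stem would be missed, so the matches are not a full count of elements. ALAS2 held a match in its 5′ UTR, and the match with 6 flanking bases on each side spanned an exon junction. Its annotated forms differed only in the last flanking base. TF held a match in the 3′ UTR of a transcript with a very long last exon. A match shows that the letters and pairing are present, not that the site is bound in these cells.

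The iron and heme genes ranged from the floor to 2066 RPKM. In both libraries 31 of 41 (75.6%) reached 1 RPKM, where 59.8% of all protein-coding genes did. At 5 RPKM or more there were 22 (53.7%), beside 35.4% of protein-coding genes. A level of 10 RPKM was reached by 13 (31.7%), beside 20.2% of protein-coding genes, and 100 RPKM by 3, beside 1.30%. The 9 genes at the floor in both libraries (22.0%, beside 33.8% of protein-coding genes) were FTMT, STEAP4, CP, HAMP, HFE, HJV, ALAS2, HP and LCN2, and TFR2 lay between the floor and 1 RPKM. The median was 7.03 RPKM, beside 2.42 for protein-coding genes, a difference of 1.23 on the log2(RPKM + 1) scale. Among genes at 1 RPKM or more that difference was 0.21, and without FTL, FTH1, PCBP1 and PCBP2, a choice made after seeing the data, it was 0.81.

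**Figure D1:**
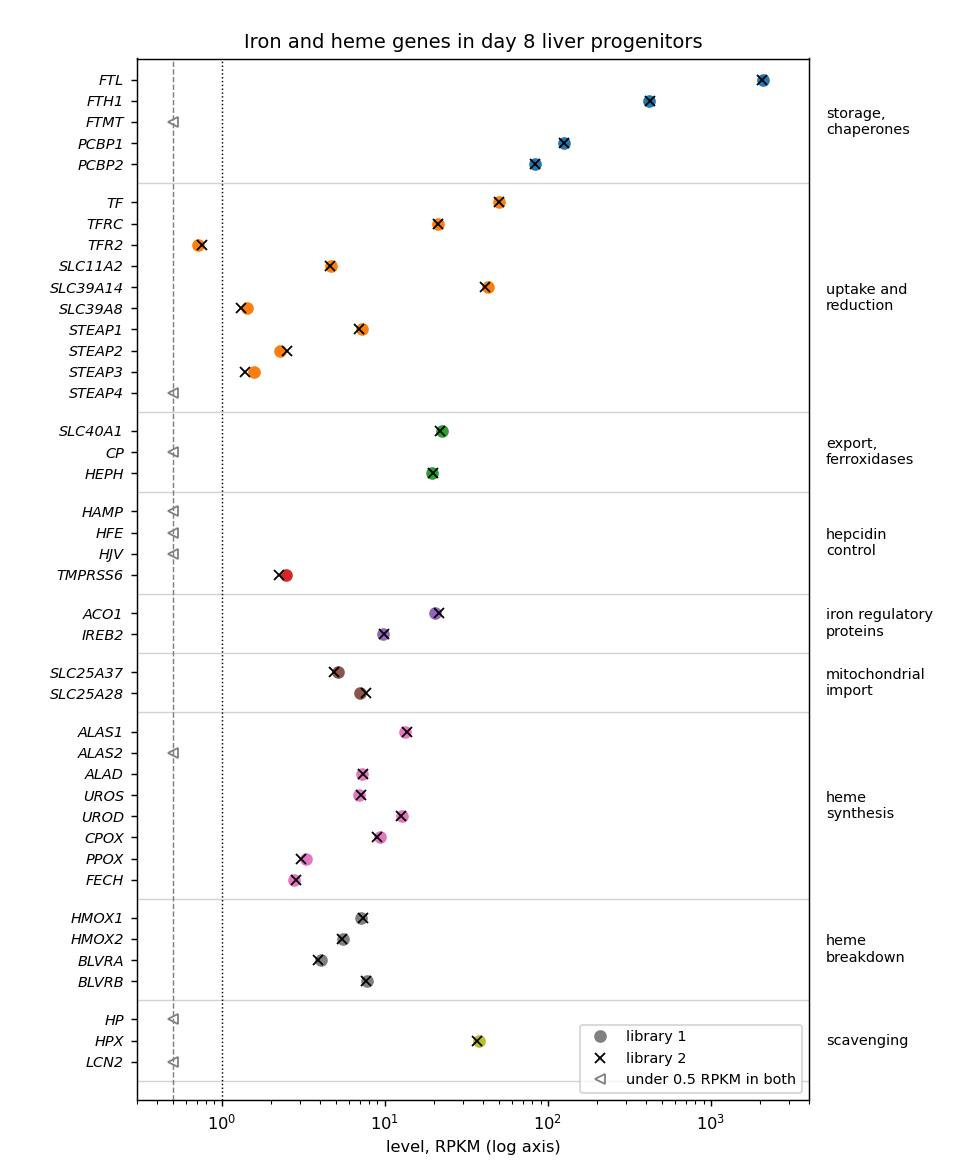
Level of each of the 41 iron and heme genes in RPKM on a log axis, grouped by role, with a dot for library 1 and a cross for library 2; open triangles mark genes under 0.5 RPKM in both libraries, the dashed line is 0.5 RPKM and the dotted line 1 RPKM. FTL stands highest at 2066 RPKM and the 9 genes at the floor include HAMP, CP and HP.

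**Figure D2:**
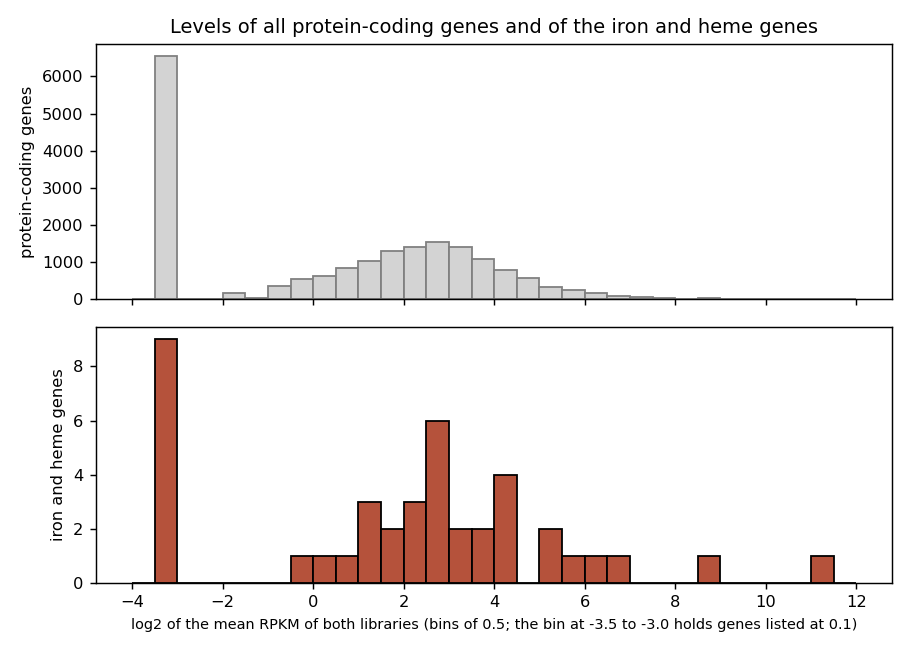
Number of genes per bin of log2 mean RPKM, for all 19344 protein-coding genes (top) and the 41 iron and heme genes (bottom), with genes listed at 0.1 in the leftmost filled bin. That bin holds 6545 protein-coding genes and 9 of the 41.

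The libraries agreed closely for these genes. Over 958 single-exon genes with 50 reads or more, the difference between libraries was 1.08 times the variance that counting alone gives, so they were counted as 1 sample, and their gap is read as technical error. Among the 32 iron and heme genes above the floor, the absolute log2 ratio of the libraries had a median of 0.046 and a maximum of 0.17 (STEAP3), beside a median of 0.050 for 12590 protein-coding genes. Liver progenitor markers were all present, 10 of 10 at 1 RPKM or more beside 59.8% of all protein-coding genes. HNF4A stood at 44.7 RPKM, AFP at 706 and ALB, the lowest of the list, at 6.68. Of 7 mature hepatocyte enzymes and transporters listed, 6 were matched and measured. All 6 were at the floor, beside 33.8% of all protein-coding genes. In such bulk RNA, fewer cells of a type and less RNA per cell cannot be told apart.

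Storage genes were the most abundant of the set. Ferritin is a shell of light and heavy chains, and the heavy chain carries the site that oxidizes iron as it enters. FTL, the light chain (ENSG00000087086.9, chromosome 19 from 49468566 to 49470136), stood at 2074 RPKM in library 1 and 2057 in library 2. Only 10 protein-coding genes ranked above it, and it held 68.1% of the summed RPKM of the 41 genes. FTH1, the heavy chain (ENSG00000167996.11, chromosome 11 from 61727190 to 61735106), stood at 419 and 424 RPKM, above 99.7% of protein-coding genes. The light chain was thus listed 4.90 times as high as the heavy chain, by 4.95 times in library 1 and 4.85 in library 2. FTMT, the ferritin of mitochondria, was at the floor in both libraries, so FTH1 was at least 843-fold higher.

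PCBP1 and PCBP2, RNA-binding proteins that also deliver iron to ferritin, stood next. PCBP1 had 125 and 126 RPKM and PCBP2 82.8 and 83.5 RPKM, and the values of both libraries were within 1 RPKM for each gene. PCBP1 was 1.51 times PCBP2.

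Levels of these 4 genes may depend on how reads from sequence shared with other genes were assigned, which is not given in the sources used here. Of the 50-base words of the main transcript, 80.5% in FTH1, 76.2% in PCBP2, 68.4% in PCBP1 and 18.5% in FTL also occurred in an annotated transcript of another gene, on either strand. The other genes were pseudogenes, readthrough transcripts and antisense or overlapping neighbours. For FTH1 and PCBP1 they included a gene that overlaps on the other strand. Of the 41 genes, 24 shared no such word, among them TFRC, SLC40A1, HEPH, HPX, HMOX1 and HAMP, and 8 shared 10% or more. Sharing was not counted over all protein-coding genes, so whether these counts are unusual is not known.

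Ferritin pseudogenes carried high listed levels. FTH1 has 25 annotated copies, of which 12 reached 1 RPKM in both libraries, led by FTH1P7 at 358 RPKM, FTH1P2 at 270.2 and FTH1P8 at 194. Their summed RPKM was 1474 in library 1 and 1472 in library 2, above FTH1 itself. FTL has 16 copies, and 3 reached 1 RPKM, namely FTLP3 at 611 and 635 RPKM, FTLP2 at 16.9 and FTLP14 at 1.40. The share of all annotated pseudogenes at 1 RPKM was not computed, so these counts have no background.

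Likeness to the parent gene separated the copies with a level from those without. All 13 FTH1 copies with an aligned identity of 90% or more were above the floor, and all 12 below 90% were at the floor. For FTL, both copies above 90% had a level, FTLP3 (97.7% identical) far more than FTLP2 (93.9%), while 13 of the 14 copies under 90% were at the floor and FTLP14, at 83.1%, was not. The limit of 90% was not among the planned settings. It lies in the gap between the FTH1 copies at the floor (88.7% or less) and those above it (90.8% or more). These are descriptions over copies that share a parent. Whether the copies are transcribed or hold reads of the parent was not tested.

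Counting the copies with the parent changes the ratio of the chains. With the pseudogene reads expressed on the length of the parent transcript, FTH1 came to 1105 RPKM and FTL to 2454 RPKM, and pseudogenes held 61.9% of the FTH1 total and 15.8% of the FTL total. The log2 ratio of light to heavy chain, 2.29 as listed, was then 1.15, and FTL remained the higher. Of the 4 annotated copies of PCBP2, PCBP2P2 (96.0% identical over its aligned part) was listed at 111 and 109 RPKM and the others at the floor. With it added, the log2 ratio of PCBP1 to PCBP2 was 0.09 in place of 0.59. An overlapping noncoding gene on the same strand as PCBP2, ENSG00000257379, was itself listed at 278 and 280 RPKM.

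**Figure D3:**
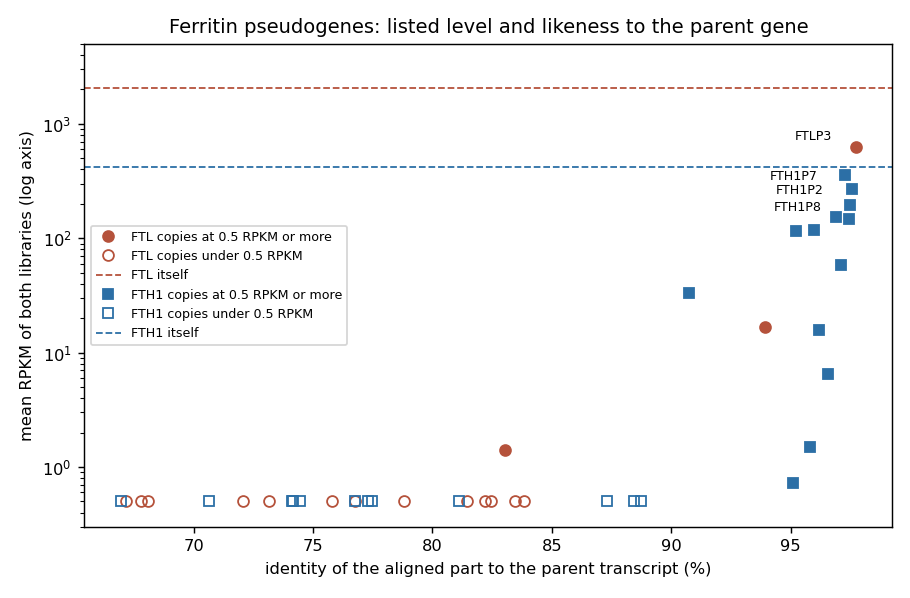
Mean RPKM of annotated FTL and FTH1 pseudogenes on a log axis against the percent identity of their aligned part to the parent transcript; open symbols are copies under 0.5 RPKM in both libraries, and dashed lines are the parents at 2066 and 422 RPKM. All 13 FTH1 copies above 90% identity have a level and all 12 below it are at the floor.

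Genes for transferrin-bound uptake were present with 1 of the receptors low. TF, transferrin itself (ENSG00000091513.10, chromosome 3), stood at 50.1 RPKM in library 1 and 50.2 in library 2, above 96.9% of protein-coding genes. TFRC, the general transferrin receptor (ENSG00000072274.8, chromosome 3 from 195739382 to 195809024), stood at 21.2 and 21.0 RPKM. TFR2, the receptor through which hepatocytes sense transferrin iron, had 0.72 and 0.76 RPKM. Both libraries placed TFRC far above TFR2, by 29.6 and 27.9 times. At the length of its main transcript, the TFR2 value corresponds to about 52 reads in library 1 and 55 in library 2. A level of 0.5 RPKM would be about 36.3 reads in library 1.

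Iron not bound to transferrin enters through metal carriers of the SLC39 family, and SLC11A2 moves iron across the membrane of the endosome. SLC39A14, the main carrier of free iron in hepatocytes, stood at 42.9 and 41.3 RPKM, the second highest of the uptake genes after TF. Its relative SLC39A8 stood at 1.44 and 1.31 RPKM, so that SLC39A14 was 30.7 times as high on the mean. SLC11A2 had 4.71 and 4.58 RPKM.

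The STEAP proteins are membrane enzymes of one family, and several of them reduce iron before it leaves the endosome. STEAP1 was the highest, at 7.22 and 6.93 RPKM, although 23.8% of its 50-base words also occur in STEAP1B. STEAP2 stood at 2.29 and 2.53 RPKM. STEAP3, the reductase known from red cell precursors, had 1.57 and 1.40 RPKM, and STEAP4 was at the floor. The order STEAP1, STEAP2, STEAP3 held in each library.

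Export genes were led by ferroportin. SLC40A1, the iron exporter (ENSG00000138449.6, chromosome 2 from 190425316 to 190448484), stood at 22.4 RPKM in library 1 and 21.8 in library 2, close to TFRC at 21.2 and 21.0. Iron leaving the cell is oxidized by a multicopper ferroxidase, which is ceruloplasmin in plasma, made by the liver, and hephaestin on gut epithelium. HEPH stood at 19.5 and 19.8 RPKM, above 90.2% of protein-coding genes. CP was at the floor in both libraries, so HEPH was at least 39.3-fold higher. None of the 50-base words of HEPH occurred in another annotated gene, whereas 32.5% of those of CP also occurred in HPS3, which overlaps it on the other strand, or in the copy CPP.

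Of the hepcidin genes, the hormone and its membrane activators were at the floor. HAMP, which encodes hepcidin, was listed under 0.5 RPKM in both libraries. Its main transcript is short, and 0.5 RPKM of it corresponds to about 5.1 reads in library 1, so a low level cannot be told from absence. HFE and HJV, membrane proteins that raise hepcidin in response to iron, were at the floor too. TMPRSS6, the protease that cleaves hemojuvelin and lowers hepcidin, stood at 2.47 and 2.24 RPKM. Of the 4 genes, 3 were at the floor, beside 33.8% of all protein-coding genes, and TMPRSS6 was the one above it.

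BMP signalling is the main route by which iron raises hepcidin, and BMP4 was in the medium. Of 19 genes of this arm, 17 reached 1 RPKM in both libraries, beside 59.8% of all protein-coding genes, with a median of 8.34 RPKM. ID1, a target that BMP signals raise together with hepcidin in liver, stood at 347 RPKM. FURIN, a protease that cuts hemojuvelin, had 49.1 RPKM, FKBP1A, which holds BMP receptors inactive, 47.6, and the inhibitory SMAD6 30.9. The ligands BMP2 and BMP6 stood at 28.8 and 3.79 RPKM and the receptor BMPR1A at 12.4. BMPR1B and ERFE, a hormone of red cell precursors that lowers hepcidin, were at the floor. In the interleukin 6 arm 6 of 8 genes reached 1 RPKM, a small list read beside the same 59.8%, with CEBPA at 42.3, the coreceptor IL6ST at 17.7, SOCS3 at 6.32 and JAK1 at 6.23 RPKM, JAK2 at 0.87, and IL6 at the floor. Which input set the level of HAMP was not tested.

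Both iron regulatory proteins reached 1 RPKM in both libraries, as did 59.8% of all protein-coding genes. ACO1, which is an aconitase when it carries an iron-sulfur cluster and binds the hairpins printed above when it does not, stood at 20.3 and 21.4 RPKM. IREB2, which is degraded when iron is plentiful, stood at 9.79 and 9.88 RPKM. ACO1 was 2.12 times IREB2 on the mean. Of 12 further genes for iron sensing and carriage, 8 reached 1 RPKM (66.7%, near the 59.8% of all protein-coding genes), among them SKP1 at 34.2 RPKM, SNX3 at 31.0 and PCBP4 at 25.2. FBXL5, the iron-sensing part of the ligase that removes IREB2, had 8.26 RPKM. CYBRD1, the iron reductase of the gut surface, SCARA5, a ferritin receptor, LTF (lactoferrin) and PCBP3 were at the floor.

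Mitochondria receive iron through the mitoferrins. SLC25A28, the form of most tissues, stood at 7.03 and 7.68 RPKM. SLC25A37, the form that red cell precursors depend on, stood at 5.17 and 4.84 RPKM. The ratio of SLC25A28 to SLC25A37 was 1.36 in library 1 and 1.59 in library 2.

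Heme synthesis starts and ends in mitochondria. ALAS1, the rate-limiting first enzyme outside red cells, was the highest of the 8 synthesis genes at 13.3 and 13.7 RPKM. ALAS2, its red cell counterpart, was at the floor in both libraries, so ALAS1 was at least 27.0-fold higher. In the cytosol, ALAD, which makes the pyrrole unit, stood at 7.25 and 7.38 RPKM, UROS, which closes the ring, at 6.92 and 7.13, and UROD, which trims its side chains, at 12.7 and 12.6. CPOX, back in mitochondria, had 9.40 and 8.92 RPKM.

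The last steps were the lowest of the 7 expressed synthesis genes. PPOX, which forms protoporphyrin, stood at 3.28 and 3.06 RPKM, and FECH, which inserts the iron, at 2.75 and 2.87 RPKM. Their values did not overlap with those of the 5 expressed genes of the earlier steps in either library. PPOX and FECH lay near the middle of all protein-coding genes, above 54.7% and 52.5% of them. The list does not hold every enzyme of the pathway.

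Red cell genes were looked at because ALAS2, SLC25A37 and STEAP3 are known from red cell precursors. Of 17 erythroid markers, 15 were at the floor, including HBA1, HBA2, HBB, HBG1, HBG2, HBZ, KLF1 and GATA1. The summed level of the list was 13.8 RPKM in library 1 and 13.9 in library 2, most of it EPOR at 10.8 RPKM, with HBE1 (embryonic epsilon globin) at 1.56. Of 9 macrophage markers, 7 were at the floor, with CD68 at 3.41 and CD163 at 1.22 RPKM, and the list summed to 5.62 and 5.04 RPKM. Among 4 endothelial markers measured, 3 were at the floor and KDR stood at 1.61 RPKM. The share of all protein-coding genes at the floor, 33.8%, is the background for each of these counts.

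All 4 genes of heme breakdown reached 1 RPKM in both libraries, beside 59.8% of all protein-coding genes. Their means lay between 3.96 and 7.76 RPKM. Heme oxygenase opens the ring and frees the iron, and biliverdin reductase makes bilirubin from the product. HMOX1, the inducible oxygenase, stood at 7.10 and 7.39 RPKM and HMOX2, the constitutive one, at 5.53 and 5.49. HMOX1 was 1.28 times HMOX2 in library 1 and 1.35 times in library 2. BLVRB, the reductase abundant in fetal tissue and red cells, stood at 7.81 and 7.71 RPKM and BLVRA, the main bilirubin-forming enzyme of adults, at 4.03 and 3.89, a ratio of 1.96 on the mean.

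Plasma scavengers made by liver were present or missing one by one. HPX (hemopexin), which binds free heme, stood at 38.0 and 36.6 RPKM, above 95.5% of protein-coding genes. HP (haptoglobin), which binds free hemoglobin, was at the floor in both libraries, so HPX was at least 74.6-fold higher. Of the 50-base words of HP, 34.5% also occurred in its relative HPR. LCN2, which binds bacterial iron carriers, was at the floor as well.

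**Figure D4:**
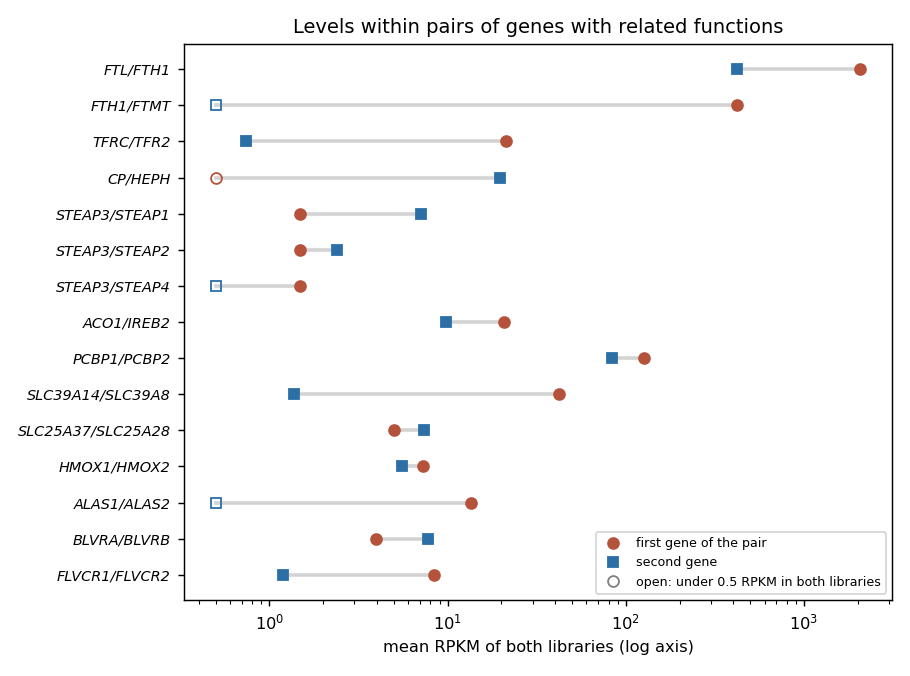
Mean RPKM on a log axis for 15 pairs of genes with related functions, the first gene of each pair as a dot and the second as a square, open where the gene is under 0.5 RPKM in both libraries. FTH1 is drawn at least 843-fold above FTMT and SLC39A14 30.7 times as high as SLC39A8, while HMOX1 is 1.32 times HMOX2, the smallest ratio among the pairs drawn.

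Of 17 pairs compared, 11 were apart by 1 or more on the log2(RPKM + 1) scale. The direction was the same in both libraries for each pair. ACO1 and IREB2 sat at that limit, with 0.98 in library 1 and 1.04 in library 2. The heme transport list also held a wide pair: FLVCR1 stood at 8.20 and 8.48 RPKM and its relative FLVCR2 at 1.17 and 1.23.

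Genes that work with the heme and iron genes were broadly detected. All 16 heme transport genes reached 1 RPKM, led by PGRMC1 at 51.6 RPKM, which binds heme, TMEM14C at 47.0, which moves heme precursors in mitochondria, LRP1 at 40.7, the receptor for hemopexin, and PGRMC2 at 18.4. Of 22 genes for iron-sulfur cluster assembly, 21 did, led by the chaperone HSPA9 at 43.2 RPKM, CIAO2B at 29.7, GLRX5 at 25.2 and CIAO1 at 16.5. The scaffold ISCU stood at 6.48 RPKM, and IBA57 was the one under 1 RPKM, at 0.88. The share of all protein-coding genes at 1 RPKM, 59.8%, is the background for both counts.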

How the data were processed

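Poly(A) RNA of day 8 liver progenitors was sequenced in 2 strand-specific libraries, per the labels. The deposited table gives RPKM per versioned Ensembl gene, scaled by the authors to gene length and reads. Tools listed without a role in the submitters' processing notes are STAR 2.3.0e, Cufflinks 2.2.0 and FastQC 0.10.1, with the build hg19, while the series text names Sailfish. The step that produced the values, and the use of strand in counting, is not given in the sources used here. Steps between values of single-exon genes correspond to 25182154 reads in library 1 and 25263882 in library 2, with 83.8% and 83.7% of values under 500 reads whole within 0.02 of a read. Genes with several exons gave no whole reads, so no count model was used, and read numbers given for them are approximate. PCR without molecular identifiers means that counting error is a lower bound.

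Identifiers were joined without version to GENCODE 44 on GRCh37 (54428 of 57158 matched), and symbols, positions and sequences come from it. Protein-coding symbols with 1 value each, the highest, formed the background. Detection means 1 RPKM or more in both libraries. No test between groups was possible with 1 group, and separate cultures are not stated for the libraries. Pseudogenes were aligned with BLAST 2.17.0. The depth and dispersion estimates and the hairpin search were tested on simulated data. The members, lists and pairs were chosen with earlier results of these data known. Named are all members, both genes of each pair, up to 4 highest members and those at the floor of each further list, and the 3 highest pseudogenes of each member. BMP2, BMP6, BMPR1A, FBXL5, ISCU, IBA57, JAK2, KEAP1, BACH1, GCLM, HNF4A, ALB, ENSG00000257379, HPS3, HPR and STEAP1B were named after their values were seen. Alternatives covered the limit, pseudocount, scaling, background, pseudogenes and each library alone. Some genes that the rule names are left out by name, while counts include them. Analyses used Python 3.11.15.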

Additional observations from a re-analysis of the deposited data

How the results depend on the processing

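No paired analysis was possible because the series has 1 group. Rescaling each library to a common sum (the TPM scale) raised the genes at 10 RPKM or more from 13 to 25 of 41, beside 41.1% of protein-coding genes, since rescaling multiplies every value. The count at 1 RPKM stayed between 22 (limit of 5 RPKM) and 32 in the 6 alternatives tried. The median difference from protein-coding genes, 1.23 log2, was 1.50 and 1.53 with pseudocounts of 0.1 and 0.01, 1.40 after rescaling, 0.21 among genes at 1 RPKM or more and 0.81 without FTL, FTH1, PCBP1 and PCBP2; it was 1.21 with either library left out. The spread between libraries, 1.08 times counting variance, was 1.02 with a minimum of 20 reads and 1.12 with 200, both chosen after seeing the data. None of the 85 alternative values of the 17 pairs changed direction, and 10 or 11 pairs were apart by 1 log2. Most of these alternatives could not have shown a reversal. A changed pseudocount cannot reverse a pair. Adding pseudogenes altered only FTL/FTH1, FTH1/FTMT and PCBP1/PCBP2, and the 2 libraries count as 1 sample. With all identifiers as the background, each of the 32 genes above the floor outranked a larger share of genes. Depth limits the low genes most, HAMP and TFR2 among them.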

Other observations

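Genes of the NRF2 and BACH1 axis, through which heme and oxidants act on HMOX1 and the ferritin genes, were all detected, 10 of 10 at 1 RPKM or more with a median of 12.3 RPKM, beside 59.8% of protein-coding genes at that level. The activator NFE2L2 stood at 26.6 RPKM, its inhibitor KEAP1 at 14.8 and the heme-sensing repressor BACH1 at 5.07. Of the enzymes that NRF2 raises, NQO1 had 17.6 RPKM, TXNRD1 15.3 and GCLM, the lowest of the list, 1.25.

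Among all genes with an iron-responsive element match in the 5′ UTR, FTL and FTH1 were the most abundant in these cells, followed by PTMA at 295 RPKM, DUSP9 at 51.5 and the coagulation factor F10 at 48.4. These genes were named after their values were seen, and no function of the match in PTMA, DUSP9 or F10 was tested.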
